A study of Mus musculus with 4 samples.

Results

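The 7 genes described here, Chil3, Mrc1, Msr1, Marco, Cd68, Lgals3 and Mpeg1, are markers of macrophage scavenging and activation, and they were read in whole lungs of unexposed mice and of mice that had inhaled hexamethylene diisocyanate (HDI). Members were the probe sets of the Affymetrix MG_U74Av2 array whose platform gene symbol is 1 of these 7 names, 10 of 12488 probe sets, and 7 of 8251 genes. HDI is a reactive chemical of polyurethane paints and coatings that irritates the airways. Each sample was a pool of whole lungs from mice of the inbred C57BL/6J strain, and each pool was read on 1 array. One pool came from unexposed mice, titled with 0 h, and 3 pools came from mice 6, 18 and 90 h past an HDI aerosol of 10 mg per cubic metre. The size of a pool, the length of exposure and the age of the mice are not given in the labels. With 1 array per group there were no replicates and no test was made. Each fold below therefore describes these arrays, and the number of arrays limits the precision.

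Macrophages of the air spaces take up inhaled particles, surfactant and dying cells through scavenger receptors and lectins, and degrade them in lysosomes. Msr1 and Marco encode class A scavenger receptors that bind modified lipoproteins, bacteria and particles. Mrc1 encodes the mannose receptor, an endocytic lectin of resident and alternatively activated macrophages. Cd68 encodes macrosialin, a glycoprotein of late endosomes and lysosomes. Chil3 encodes a chitinase-like protein that mouse alveolar macrophages secrete and that interleukin-4 and interleukin-13 induce. Lgals3 encodes galectin-3, a lectin that binds beta-galactosides and is made by macrophages and by epithelium. Mpeg1 encodes perforin-2, a pore-forming protein that acts on bacteria taken up by phagocytes.

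Values were intensities in array units, scaled so that the 4 arrays had the same trimmed mean. Scaled values under 77.7 units, the 40th percentile of all values, were set to that floor, since dim probe sets carry little information on level. Of the 7 genes, 5 had a probe set above the floor on all 4 arrays: Chil3, Mrc1, Cd68, Lgals3 and Mpeg1. Marco and Msr1 were below it on all 4 arrays, so of the 3 receptor genes only Mrc1 was measured, and nothing can be said here of the class A scavenger receptors. In whole lung, fewer cells of a type and less RNA per cell cannot be told apart.

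The arrays were alike. Their deposited medians lay between 97.7 and 108 units, the scale factors between 0.970 and 1.07, and the ratio of 3' to 5' Gapdh control signal, which tracks RNA integrity, between 1.12 and 1.22. As a yardstick for single differences, the spread between paired probe sets of 1 gene was used. Its robust SD in log2 units was 0.28 for 6 h, 0.28 for 18 h and 0.24 for 90 h, each against the unexposed pool. It holds no variation between mice, pools or hybridisations. All 3 comparisons with unexposed lungs share the unexposed array.

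The sequences just upstream of the 5 measured genes are shown because 4 of these genes had their highest level in the same pool, at 90 h, and the other one at 18 h. Each is the 250 bases before the gene's RefSeq start in GRCm38.p6, read 5′ to 3′ on the gene's strand, and 6 of the 7 members were in the table. Capitals mark matches on either strand to GAGGAA, a PU.1-type motif, to TGANTCA, an AP-1 motif, or to a STAT motif, TTCNNNGAA or its form with a spacer of 4 bases, which STAT6 prefers. PU.1 is a transcription factor of macrophages and other myeloid cells, and STAT6 acts downstream of interleukin-4.
Chil3, chr3:106167565-106167814, minus strand: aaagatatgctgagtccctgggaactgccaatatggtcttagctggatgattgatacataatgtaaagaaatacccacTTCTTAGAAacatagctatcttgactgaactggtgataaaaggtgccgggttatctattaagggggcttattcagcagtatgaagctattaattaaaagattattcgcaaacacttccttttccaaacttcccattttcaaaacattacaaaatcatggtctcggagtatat
Mrc1, chr2:14229164-14229413, plus strand: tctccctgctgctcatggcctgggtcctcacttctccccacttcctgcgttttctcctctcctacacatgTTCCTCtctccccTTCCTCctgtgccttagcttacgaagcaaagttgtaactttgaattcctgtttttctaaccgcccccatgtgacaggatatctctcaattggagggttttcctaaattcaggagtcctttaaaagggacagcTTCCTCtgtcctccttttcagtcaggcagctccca
Cd68, chr11:69666171-69666420, minus strand: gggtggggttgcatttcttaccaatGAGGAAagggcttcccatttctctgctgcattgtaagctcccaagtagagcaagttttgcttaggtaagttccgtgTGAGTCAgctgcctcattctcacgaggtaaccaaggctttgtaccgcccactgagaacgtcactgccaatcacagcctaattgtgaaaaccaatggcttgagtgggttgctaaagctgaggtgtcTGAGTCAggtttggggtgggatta
Mpeg1, chr19:12460520-12460769, plus strand: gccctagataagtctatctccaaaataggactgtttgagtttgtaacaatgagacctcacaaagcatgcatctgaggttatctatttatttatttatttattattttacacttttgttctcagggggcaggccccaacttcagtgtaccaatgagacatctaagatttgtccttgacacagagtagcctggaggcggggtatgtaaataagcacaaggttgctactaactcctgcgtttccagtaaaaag
Lgals3, chr14:47373610-47373859, plus strand: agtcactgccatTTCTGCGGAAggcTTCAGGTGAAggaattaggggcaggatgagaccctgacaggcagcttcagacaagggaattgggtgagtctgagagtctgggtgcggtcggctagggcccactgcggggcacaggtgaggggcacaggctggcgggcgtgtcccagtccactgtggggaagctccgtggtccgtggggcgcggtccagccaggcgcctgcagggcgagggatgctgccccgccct

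The 4 genes highest at 90 h had no searched motif in common within this window. GAGGAA stood 3 times upstream of Mrc1, all on the opposite strand, and once upstream of Cd68, and 23.3% of 32851 RefSeq windows of the same length held it. TGANTCA stood upstream of Cd68 alone, at 149 and 24 bases before the start, and 6.75% of all windows held it. TTCNNNGAA stood upstream of Chil3 alone, at 172 bases before the start, and in 7.02% of all windows. The STAT form with a spacer of 4 bases stood upstream of Lgals3 alone, at 238 and 225 bases before the start, and in 5.85% of all windows. None of the 5 windows held TGACNNNGC, the core of the antioxidant response element, or TATAAA, the TATA box, which 10.2% and 12.4% of all windows held. GGGCGG, the GC box, stood upstream of Mrc1, Cd68 and Lgals3 and in 32.7% of all windows. The Lgals3 window was 66% G and C, while those of Chil3 and Mpeg1 were 36.4% and 40%, with a median of 52.4% over all windows. The Mpeg1 window held none of the 7 motifs on either strand. No 2 matches overlapped. These matches describe letters and not binding.

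**Figure D1:**
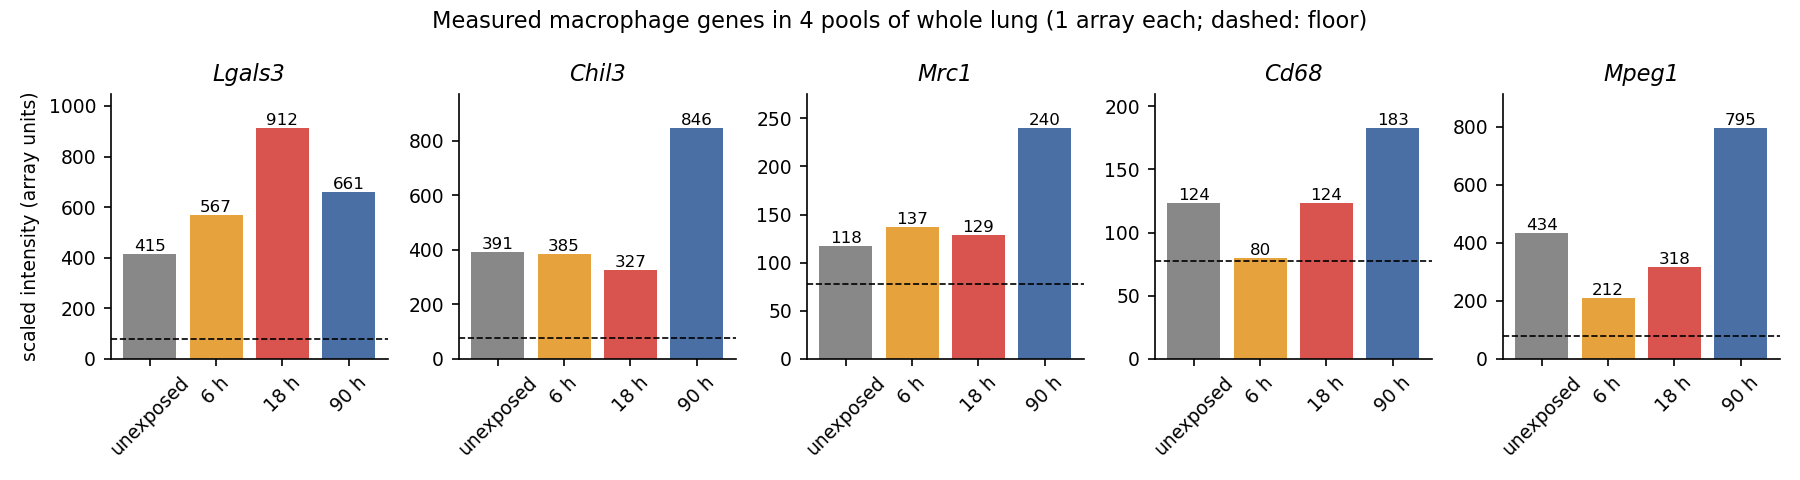
Scaled intensity (vertical axes, array units, each starting at 0) of the 5 measured genes in the unexposed pool and in the pools at 6, 18 and 90 h after HDI. Each bar is 1 array, so there is no error bar, and the dashed line is the floor at 77.7 units. Lgals3 was highest at 18 h and the other 4 genes at 90 h.

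At 90 h the macrophage genes were higher than in unexposed lungs. All 5 measured genes were above the unexposed pool, with a median log2 difference of 0.87, against 0.03 over all 6061 genes compared. At least 2-fold higher were 2 of the 5, Chil3 and Mrc1, where 0.726% of all genes were, and none of the 5 was at least 2-fold lower, where 0.924% of all genes were. All 5 differences were above 2 SDs of the yardstick, from 2.32 SDs for Cd68 to 4.59 for Chil3. Other processing brought 2 of them under 2 SDs, which are 0.49 log2 units at 90 h. Cd68 was at 0.41 with the floor at the 60th percentile, 0.46 with a pseudocount in place of the floor and 0.28 with probe sets averaged, and Mpeg1 at 0.44 with probe sets averaged.

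Among the receptors, Mrc1 read 118, 137, 129 and 240 scaled units in the unexposed, 6, 18 and 90 h pools. The first 3 pools were alike and the 90 h pool stood above them. Mrc1 was 2.04-fold higher at 90 h than in unexposed lungs, a log2 difference of 1.03, and 41 of 6061 genes had a higher difference. With a pseudocount in place of the floor, or the floor at the 60th percentile, this difference was 0.86 or 0.80, under 2-fold. At 6 and 18 h the log2 differences of Mrc1 from the unexposed pool were 0.22 and 0.13, both under 1 SD of the yardstick.

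Marco, by 1 probe set, read 18.2, 22.2, 38.1 and 46.1 scaled units in the unexposed, 6, 18 and 90 h pools. Msr1 read 35.3, 34.6, 44.2 and 54.8 by 1 probe set, and 8.38, 8.89, 0 and 6.64 by the other. All of these values lay under the floor of 77.7 units, where values have no order, so no fold is given. The other probe sets of Cd68 and Mpeg1 were also below the floor on all arrays. They read 15.4, 5.56, 7.69 and 11.7 units for Cd68 and 39.5, 0, 11.8 and 19.6 for Mpeg1. The second probe sets therefore say nothing on the levels of these 2 genes.

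**Figure D2:**
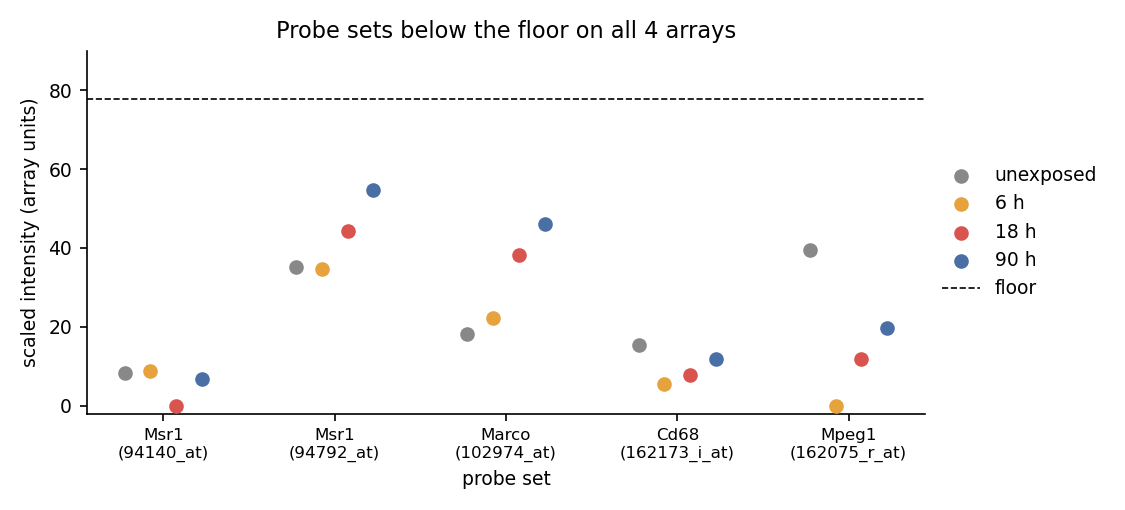
Scaled intensity (vertical axis, array units) of the 5 member probe sets that lay below the floor on all 4 arrays, 1 point per array, coloured by pool. The dashed line is the floor at 77.7 units, and the highest point is Msr1 at 90 h with 54.8 units.

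Chil3, the chitinase-like protein, read 391, 385, 327 and 846 scaled units in the unexposed, 6, 18 and 90 h pools. Its first 3 pools differed by less than 1 SD of the yardstick, and the 90 h pool stood apart from them. It was 2.16-fold higher at 90 h than in unexposed lungs, a log2 difference of 1.11, and 29 of 6061 genes had a higher one. It was 2.59-fold higher at 90 h than at 18 h. Chil4, a close paralog of Chil3, had no probe set of its own name on this array, so signal from it in the Chil3 probe set cannot be told apart from Chil3.

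Cd68, the lysosomal glycoprotein, read 124, 79.6, 123.5 and 183 scaled units in the unexposed, 6, 18 and 90 h pools. The 6 h pool was lowest and only just above the floor, the unexposed and 18 h pools were alike, and the 90 h pool was highest. Its log2 difference from the unexposed pool was -0.63 at 6 h and 0.56 at 90 h, 1.48-fold higher at the later time. Between exposed pools Cd68 was 2.29-fold higher at 90 h than at 6 h. By its suffix this probe set may cross-hybridise, and without it Cd68 had no measured value. Probe sets with such a suffix were left out of the yardstick, which therefore does not describe this one.

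Mpeg1, the pore-forming protein, had the widest range of the 5 genes. It read 434, 212, 318 and 795 scaled units in the unexposed, 6, 18 and 90 h pools. It was lowest at 6 h, lay between the 6 h and unexposed levels at 18 h, and was highest at 90 h. The 18 h pool differed from the unexposed pool by 1.61 SDs of the yardstick, and each other pair of neighbours in this order by over 2 SDs. At 6 h it was 2.05-fold lower than in unexposed lungs, and 82 of 6044 genes had a lower difference. With unscaled values, or a pseudocount in place of the floor, its log2 difference at 6 h was -0.93 or -0.94, under 2-fold. With its probe sets averaged it was -0.52, the second of them being at the floor on all arrays. At 90 h it was 1.83-fold higher than in unexposed lungs, and 63 of 6061 genes had a higher difference. Between the exposed pools it was 3.76-fold higher at 90 h than at 6 h, and 9 of 6057 genes had a higher difference.

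Lgals3, galectin-3, followed another course. It read 415, 567, 912 and 661 scaled units in the unexposed, 6, 18 and 90 h pools. It was highest at 18 h, and the 90 h pool lay between the 18 h and 6 h pools. It was 2.20-fold higher at 18 h than in unexposed lungs, a log2 difference of 1.14, and 61 of 6040 genes had a higher one. At 6 h it was 1.37-fold higher and at 90 h 1.59-fold higher, differences of 1.62 and 2.77 SDs of the yardstick. The difference of 90 h from 6 h, 0.22 log2 units, was within 1 SD, so these neighbours in the order did not differ beyond it.

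Before 90 h the 5 genes did not move as a group. At 6 h their median log2 difference from unexposed lungs was -0.02, against -0.04 over 6044 genes. Mpeg1 was at least 2-fold lower, where 1.51% of all genes were, and none was at least 2-fold higher, where 2.17% of all genes were. At 18 h the median was 0.00, against -0.01 over 6040 genes. Lgals3 was at least 2-fold higher, where 1.59% of all genes were, and none was at least 2-fold lower, where 0.944% were. With 1 gene in each case, these counts say little about the group.

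The step from 18 h to 90 h held most of the increase for Chil3, Mrc1 and Mpeg1. At 90 h Chil3 and Mpeg1 were at least 2-fold higher than at 18 h, where 0.904% of 5976 genes were, and Mrc1 was 1.86-fold higher. Mpeg1 was 2.50-fold higher and Cd68 1.48-fold higher in this comparison. Lgals3 alone was lower at 90 h than at 18 h, 1.38-fold. None was at least 2-fold lower in it, where 0.954% of all genes were. From 6 h to 18 h none of the 5 passed 2-fold in either direction, where 1.18% of 5995 genes were higher and 1.17% lower. In that step Lgals3, Cd68 and Mpeg1 were 1.61-fold, 1.55-fold and 1.5-fold higher at 18 h. At 90 h against 6 h, 3 of the 5, Chil3, Cd68 and Mpeg1, were at least 2-fold higher, where 2.06% of 6057 genes were, and none was 2-fold lower, where 2.15% were.

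Lower and higher thresholds were read in the same way. At 1.5-fold, 4 of the 5 were higher at 90 h than in unexposed lungs, where 3.42% of all genes were, and Cd68 was the one that was not. At 1.5-fold, 2 were lower at 6 h, Mpeg1 and Cd68, where 6.06% of all genes were. No member passed 3-fold against unexposed lungs, where 0.232% of all genes were lower at 6 h, 0.397% higher at 18 h and 0.214% higher at 90 h.

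**Figure D3:**
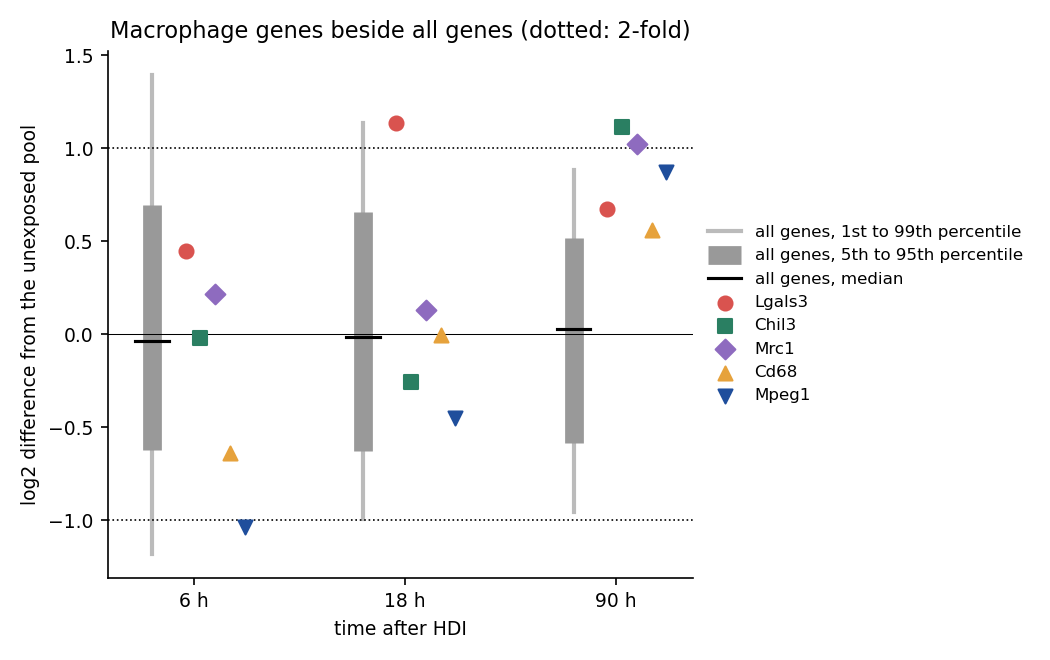
Log2 difference from the unexposed pool (vertical axis) at 6, 18 and 90 h after HDI (horizontal axis) for the 5 measured genes as points, 1 array per pool. Bars beside them give the range of all genes compared, the thick bar from the 5th to the 95th percentile, the thin one from the 1st to the 99th. At 90 h all 5 genes lay above the 95th percentile of 0.52, and Chil3 and Mrc1 above the 99th of 0.89.

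Other genes of macrophages and monocytes lay mostly above the unexposed pool at 90 h, none by 2-fold. The list held 30 genes named on the array beside the members, and 22 were compared at 90 h. None was at least 2-fold away from unexposed lungs, 18 of 22 were above 0, and the median log2 difference was 0.43. Adgre1 and Ncf1 entered only through the 90 h array, so they could only lie above 0, and Fcgr3 only through the unexposed array. Of the 19 genes above the floor on both arrays 16 were above 0, with a median of 0.49. Ctss, the lysosomal protease cathepsin S, was 1.96-fold higher, and Ccr2, the chemokine receptor of inflammatory monocytes, 1.71-fold. C1qb and C1qa, subunits of complement C1q that macrophages make, were 1.62-fold and 1.51-fold higher. At 6 h 5 of 21 were above 0 and the median was -0.31. At 18 h 9 of 21 were, with a median of -0.04, which was 0.08 with unscaled values. At 6 h Ccr2, Cybb and Ncf4 entered only through the unexposed array, and at 18 h Fcgr3, Cybb and Ncf4 did. These could only lie below 0. Mertk at 6 h and Slc11a1 at 18 h entered only through the exposed array. Above the floor on both arrays were 17 genes at each time, with 4 above 0 at 6 h and 8 at 18 h. Their medians were -0.31 and -0.04. The sum of the 30 genes was 7633, 5915, 6685 and 9605 scaled units in the unexposed, 6, 18 and 90 h pools, lowest at 6 h and highest at 90 h. Itgam, Fcgr2b, Aif1 and Fcer1g were among the 6 genes of the list at the floor on all arrays.

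Among further alveolar macrophage genes, 3 of 18 were at least 2-fold higher at 90 h, where 0.726% of all genes were. None was at least 2-fold lower, where 0.924% of all genes were, and 16 of 18 were above 0, with a median of 0.29. Il1rn, Csf2rb2, Ctsk and Mmp12 entered only through the 90 h array, so they could only lie above 0. Of the 14 genes above the floor on both arrays 12 were above 0 and 2 were at least 2-fold higher, with a median of 0.29. The chemokine gene Ccl6 was 3.24-fold higher, and Ctsk, the protease cathepsin K, at least 3.10-fold higher, since the unexposed pool was at the floor. Plet1, a surface protein, was 2.15-fold higher, and Fabp5, a fatty acid-binding protein, 1.78-fold. The medians at 6 and 18 h were 0.00 and 0.03. Ctsk and Mmp12 entered at these times only through the exposed array, and without them the medians were -0.01 and -0.07. The sum of the 22 genes named on the array was 6803, 7672, 7525 and 9484 scaled units in the unexposed, 6, 18 and 90 h pools. Of the unexposed and 6 h sums, Plin2 made up 626 and 1062 units, Fabp4 218 and 597, and Lpl 419 and 786. Abcg1 read 318 and 159 units in these pools, and 8 of 16 genes compared at 6 h were above 0. Siglecf and Ear1, usual markers of these cells, were not among the named probe sets.

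Lysosomal genes, which share their compartment with Cd68, were slightly higher at 90 h. The median over 23 genes was 0.36, 22 of them lay above 0, and none was 2-fold away from unexposed lungs. Npc1, which exports cholesterol from lysosomes, was 1.88-fold higher, Man2b1, a mannosidase, 1.66-fold, Ctsh, cathepsin H, 1.63-fold and Hexa, a hexosaminidase subunit, 1.61-fold. Ctsh was highest at 18 h, with a log2 difference of 1.25, as Lgals3 was. The list had medians of -0.15 at 6 h and 0.05 at 18 h.

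The relatives of the members by protein family or function did not move as one. Of 8 other scavenger receptors and lectins compared at 90 h, 4 were above 0 and none passed 2-fold, with a median of 0.04. Scarb2, a lysosomal membrane protein, was 1.57-fold higher and Mrc2, an endocytic receptor for collagen, 1.37-fold higher. Siglec1, the sialoadhesin of tissue macrophages, had a log2 difference of -0.83 with the 90 h pool at the floor. Cd36, a class B scavenger receptor, had a log2 difference of -0.997 by its brightest probe set, which may cross-hybridise by its suffix, and one of 0.45 without such probe sets. Of the 5 genes Lgals1, Lgals7, Lgals8, Lgals9 and Lgals3bp, 4 were above 0 at 90 h and none passed 2-fold, with a median of 0.17. Lgals3bp encodes a ligand of galectin-3 and not a galectin, and the others encode galectins. Lgals3bp was 1.24-fold and Lgals9 1.18-fold higher, and at 18 h Lgals1 had a log2 difference of 0.36. Of the chitinase family, Chia1, the acidic mammalian chitinase, was 2.09-fold higher at 90 h, while Chil1, another chitinase-like protein, was 1.24-fold higher at 90 h with a log2 difference of 0.76 at 18 h. Prf1, the perforin of cytotoxic lymphocytes and the pore-forming relative of Mpeg1 that was measured, had a log2 difference of -0.57 at 90 h.

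Gene lists for macrophage activation states had medians near that of all genes at 90 h. Of 10 alternative activation genes 6 were above 0, none passed 2-fold, and the median was 0.12. Il1rn entered only through the 90 h array, so it could only lie above 0. Of the other 9 genes 5 were above 0, with a median of 0.13. Klf4, a transcription factor of many cell types, was 1.58-fold higher, and Ccl22, Alox15 and Tgm2 had log2 differences of -0.57, -0.51 and -0.41. Il4ra was 2.89-fold higher at 6 h and 1.97-fold at 18 h, and Ccl17 at least 2.65-fold higher at 18 h. At 6 and 18 h 5 and 4 of 10 genes of this list were above 0, with medians of 0.11 and -0.17. Ccl17 entered at these times only through the exposed array, and without it the medians were -0.01 and -0.18. Arg1 and Il10 were at the floor on all arrays, and Retnla, a companion marker of Chil3 in alternative activation, was not among the named probe sets. Of 12 classical activation genes 7 were above 0, none passed 2-fold, and the median was 0.04. With the floor at the 60th percentile this median was -0.07. Il1b and Cd86 entered only through the 90 h array, so they could only lie above 0. Of the 10 genes above the floor on both arrays 5 were above 0, with a median of -0.02. Ccl5 and Cd80, a costimulatory ligand, had log2 differences of -0.81 and -0.91 at 90 h, and Socs3, an inhibitor of cytokine signalling, 0.39 after 1.49 at 6 h and 1.86 at 18 h. Nos2, Il6, Il12b and Cxcl9 were among the 8 genes of this list at the floor on all arrays.

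Cell division genes, which mark no cell type, and neutrophil genes were read beside the members. At 90 h 12 cell division genes were compared, and 5 of them, Birc5, Cdk1, Top2a, Mki67 and Mcm3, entered only through the 90 h array and so could only lie above 0. All 7 that were above the floor on both arrays also lay above 0, 2 of them at least 2-fold, with a median of 0.38. Over the 12 genes 3 were at least 2-fold higher, where 0.726% of all genes were, and the median was 0.58. At 6 h and at 18 h 8 genes were compared. Their sum was 1576, 1667, 1730 and 2957 scaled units in the unexposed, 6, 18 and 90 h pools. Birc5 was at least 6.81-fold higher, Cdc20 2.70-fold and Ccnb2 2.46-fold. Of 10 neutrophil genes 5 were above 0 at 90 h and the median was 0.00, which was 0.19 with unscaled values. Elane entered only through the unexposed array, so it could only lie below 0, and the other 9 had a median of 0.05. S100a8 and S100a9, calcium-binding proteins of neutrophils and monocytes, were 1.83-fold and 1.77-fold higher. Mpo had a log2 difference of -0.40 at 90 h, by a probe set that may cross-hybridise by its suffix. The sum of the neutrophil list was 2666, 2793, 4267 and 2903 units in the 4 pools, and its markers Ly6g, Mmp8, Prtn3 and Ctsg were at the floor on all arrays. Lcn2, which epithelium also makes, had a log2 difference of 2.53 at 18 h and carried that sum, in the pool where Lgals3 was highest.

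At 6 h, where Mpeg1 and Cd68 were lowest, the MHC class II and B cell lists lay below the unexposed pool. None of 10 MHC class II and dendritic cell genes was above 0 (median -0.64), nor any of 7 B cell genes (median -0.82). At least 2-fold lower were 2 and 3 of them, where 1.51% of all genes were. Ms4a1 entered the B cell list only through the unexposed array, so it could only lie below 0, and the other 6 had a median of -0.78. The MHC class II sum was 8543, 6365, 6838 and 9251 units in the unexposed, 6, 18 and 90 h pools, and the B cell sum 2936, 1577, 1978 and 2032. Of 4 T cell and NK cell genes 2 were above 0 at 6 h, with a median of -0.27, which was 0.01 with the floor at the 25th percentile, 0.20 with it at the 60th and 0.01 without probe sets that may cross-hybridise. Gzma entered the T cell and NK cell list at 6 h only through the unexposed array, so it could only lie below 0. The other 3 genes of that list had a median of 0.01. At 6 h H2-Oa had a log2 difference of -1.11, the dendritic cell gene Fscn1 one of -1.97 and Cd79a one of -1.44. Fscn1 was back above the unexposed pool at 18 h, with a log2 difference of 0.33. At 90 h 6 of the 10 MHC class II genes were above 0 (median 0.08) and none of the 7 B cell genes (median -0.42). Of the 4 T cell and NK cell genes 3 were above 0 at 90 h, with a median of 0.06. Medians of type II cell, club cell and endothelial genes at 90 h were 0.04, -0.40 and -0.10, the last 0.04 with unscaled values. The part of any of these cells in the members' values was not tested.

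**Figure D4:**
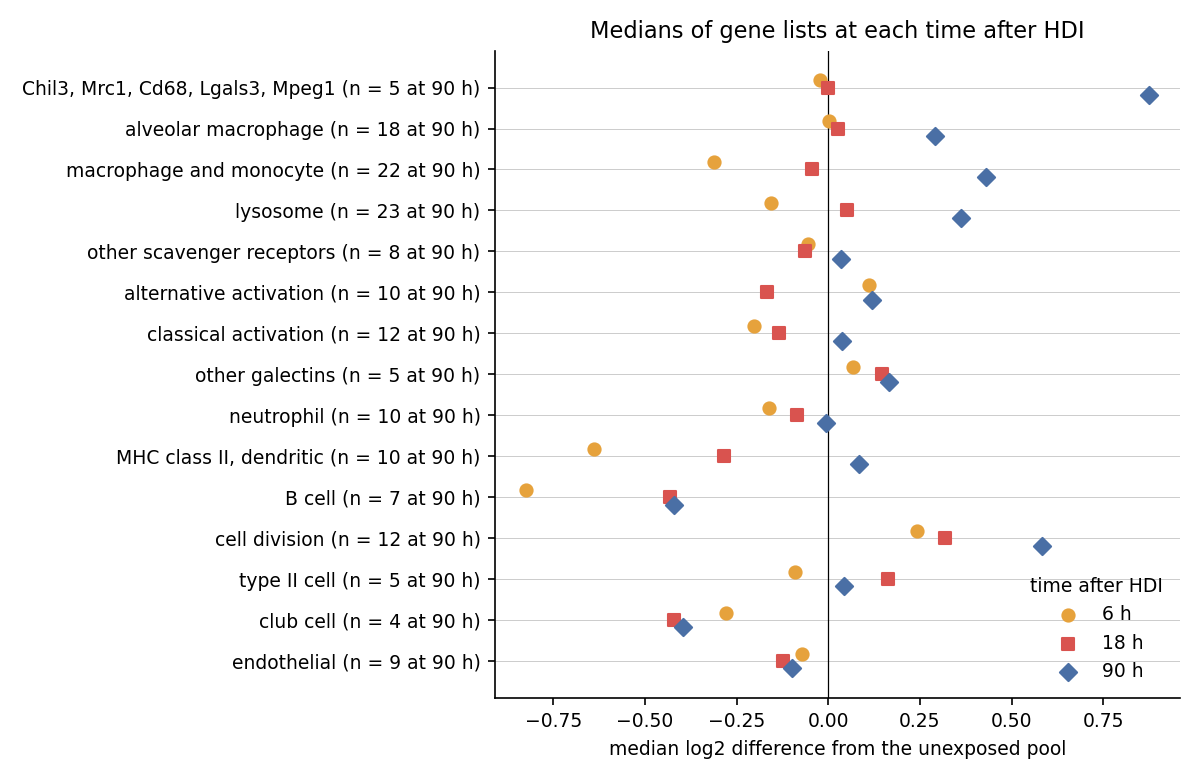
Median log2 difference from the unexposed pool (horizontal axis) of the 5 measured genes and of 14 gene lists (vertical axis), at 6, 18 and 90 h after HDI, 1 array per pool. Numbers beside the names count the genes compared at 90 h, and the galectin list includes Lgals3bp, a ligand of galectin-3. The 5 genes had a median of 0.87 at 90 h, cell division genes 0.58 (0.38 over the 7 above the floor on both arrays), macrophage and monocyte genes 0.43, and B cell genes -0.42.

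The genes nearest to each member in pattern were found by the distance over the 3 log2 differences from unexposed lungs, among 5082 other genes above the floor in all 4 pools. Nearest to Cd68 were Cyba, a subunit of the phagocyte NADPH oxidase, at 0.047, and Pirb, an inhibitory receptor of myeloid cells, at 0.16, followed by Car8 at 0.18. Nearest to Mpeg1 were Sox4 at 0.32, Ctss at 0.39 and Tyrobp, a signalling adaptor of myeloid receptors, at 0.46. Tyrobp differed by -1.28 log2 units at 6 h, -0.53 at 18 h and 0.49 at 90 h. Nearest to Mrc1 were Chia1 at 0.068, Abcf3 at 0.15 and Eln, the gene of elastin, at 0.15. Nearest to Chil3 were En1 at 0.20, Mfap4, a protein of elastic fibres, at 0.22 and Ghrh at 0.28. Nearest to Lgals3 were Gja1, the gap junction protein connexin 43, at 0.17, Sec23b at 0.19 and Crb3, an epithelial polarity protein, at 0.21. The probe sets of Cyba, Mfap4 and Gja1 may cross-hybridise by their suffixes. With 4 pools many genes lie near any pattern, so the likeness is a description of these arrays.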

How the data were processed

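Total RNA of pooled whole lungs was read on 4 oligonucleotide arrays, 1 per group. The values deposited by the authors are linear intensities, 1 for each probe set of an array, with none below 0. How they were background-corrected and scaled is not given in the labels or the file. Symbols are those of the platform annotation, checked against RefSeq by gene identifier with 0 changes. Of 12488 probe sets 66 were controls and 10833 had 1 symbol, and the rest were left out.

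Each array was scaled to the mean of the 4 trimmed means, with 2% trimmed at each end. The floor was the 40th percentile over the 4 scaled arrays, and lower values were raised to it before taking log2. The brightest probe set by mean stood for a gene, and a gene was compared when above the floor on at least 1 of the 2 arrays.

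With 1 array per group no test was made. Members, motifs and the 17 gene lists were chosen with earlier results of these data known, and both STAT spacers searched are given. Named were all member probe sets, up to 4 genes per list with the largest difference at 90 h, and the 3 genes nearest to each member that spanned 2-fold. Genes named at the floor, as not on the array or for other times were chosen after their values were seen. The code was tested on simulated data in Python 3.11.15 with numpy 2.4.6 and pandas 2.3.3. Alternatives were other scalings, floors, thresholds and choices of probe set.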

Additional observations from a re-analysis of the deposited data

Results flagged for a closer look

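Mpeg1 differed from unexposed lungs in opposite directions at 2 times, each by at least 1.5-fold. Its log2 difference was -1.04 at 6 h and 0.87 at 90 h. The difference between these times was not tested, since each pool was read on 1 array, and both comparisons share the unexposed array.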

How the results depend on the processing

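The member genes were counted again under 8 other ways of processing and 2 other thresholds. The 5 genes of the main run were not the set compared each time. With the floor at the 25th percentile Msr1 and Marco entered at 90 h, and the median over 7 genes was 0.67, against 0.87. With the floor at the 60th percentile 3 genes were compared at 6 and 18 h, and without probe sets that may cross-hybridise 4 were. Msr1 and Marco are not among the single differences that follow. Of 113 recomputed differences of single members 109 moved by less than the yardstick SD, and none that was past 2-fold changed sign. The other 4 were those of Cd68 and Mpeg1 at 6 and 90 h with probe sets averaged, at -0.32 and -0.52 at 6 h and 0.28 and 0.44 at 90 h, since a second probe set at the floor on all arrays shortens the average by construction. Members at least 2-fold lower at 6 h numbered 1, but 0 with unscaled values, with a pseudocount of 32 in place of the floor and with probe sets averaged. Members at least 2-fold higher at 90 h numbered 2, but 3 with unscaled values, 1 with the higher floor, at the 60th percentile, and 1 with the pseudocount. At a threshold of 1.5-fold, 2 were lower at 6 h and 4 higher at 90 h, and at 3-fold the counts were 0 at 6 h, 0 at 18 h and 0 at 90 h. Unscaled values moved the median of all genes at 90 h to 0.16, against 0.03 after scaling, and the share of higher genes among those past 2-fold to 61.2% from 44% at 90 h and to 81.6% from 62.7% at 18 h. With the higher floor 22 of all genes were higher and 25 lower at 90 h in place of 44 and 56, and with a lower one, at the 25th percentile, 91 and 87. Of 899 recomputed list medians and list genes, alternatives chosen after seeing the data, 861 moved by less than the SD and 39 changed sign, 34 of them list medians. Cd36 at 90 h was at -0.997, but at 0.45 without probe sets that may cross-hybridise. The cell division median at 6 h was 0.24, but -0.13 without such probe sets and -0.05 with probe sets averaged, and at 18 h it was 0.32, but 0.00 with the lower floor. The T cell and NK cell median at 6 h was -0.27, but 0.20 with the higher floor. The counts of list genes above the floor on both arrays were also added after seeing the data. No paired analysis was possible because each group has 1 array.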
